A study of Homo sapiens with 2 samples.

Results

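Histone lysine methyltransferases and demethylases were examined as 44 genes, 29 writers and 15 erasers, of 19970 protein-coding genes on chromosomes 1 to 22 and X. The genes were chosen by symbol, and each was searched for peaks of H4R3me2a, histone H4 dimethylated asymmetrically at arginine 3. A peak was counted for a gene if its summit fell in the gene body or no further than 1 kb from one of the gene's transcription start sites (TSSs). The cells were untreated HCT116, an established human colorectal carcinoma line. One library of H4R3me2a-immunoprecipitated chromatin was called against 1 library of input DNA from the same line, both from formaldehyde-fixed, sonicated chromatin. Without replicates, the spread between samples is unknown, and the intervals below are exact 95% intervals that cover counting error alone. On these chromosomes 33349 deposited peaks were used, with a median pileup of 10 fragments at the summit. The read depth of the libraries was not used here. A peak is no measure of expression and does not identify a cell type. Of the marker genes examined, 7 of 10 for intestinal epithelium, 2 of 5 for blood, 2 of 5 for liver and 4 of 5 for fibroblasts and endothelium had a peak. The share over all protein-coding genes, 47.2%, lay inside the interval of each of these lists.

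Lysine methylation of histones is set by writers, most of which carry a catalytic SET domain, and removed by erasers, which are either flavin-dependent amine oxidases or iron-dependent JmjC oxygenases. Methylation of H3K4 and H3K36 is typical of active promoters and of transcribed gene bodies, while H3K9 and H3K27 methylation is known from heterochromatin and Polycomb-repressed genes. H3K79 methylation is set by DOT1L, which has no SET domain. H4R3me2a, the mark mapped here, is an arginine mark placed mainly by PRMT1 and associated with active genes. The members were sorted by the lysine they are best known for, and KDM4A, KDM4B, KDM4C and KDM7A, which have a further substrate, were counted once.

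The sequences under the 5' end peaks show how different the marked sites of these genes were. A peak was called a 5' end peak if its summit lay within 1 kb of the outermost 5' base of the gene. For the H3K9 and H3K27 classes the 5' end peak with the highest fold is printed (EHMT2 and KDM6B), and beside it the highest of the opposite role (KDM4B and EZH1). For the H3K4 class that of the writer with the highest fold, KMT2A, is printed. KMT2A, KDM4B and EZH1 were chosen after the values were seen. The sole H3K36 peak of this kind, at NSD3, is not printed, and DOT1L had none. Sequences run 5' to 3' on the strand of the gene, in GRCh38, without UTR sequence, with each CpG in capitals. For peaks over 300 bp (EHMT2 and KDM4B) the 300 bp centred on the summit were taken, which for EHMT2 includes 50 bp beyond the end of the peak. The sites are KMT2A at chr11:118436238-118436455 (plus strand), EHMT2 at chr6:31896813-31897112 (minus), KDM4B at chr19:4969231-4969490 (plus), EZH1 at chr17:42744556-42744697 (minus) and KDM6B at chr17:7834707-7834946 (plus).
KMT2A: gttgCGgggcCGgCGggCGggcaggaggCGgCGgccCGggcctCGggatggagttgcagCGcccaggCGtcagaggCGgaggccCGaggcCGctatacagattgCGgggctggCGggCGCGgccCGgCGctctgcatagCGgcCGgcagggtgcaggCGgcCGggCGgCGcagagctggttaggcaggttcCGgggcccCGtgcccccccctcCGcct
EHMT2: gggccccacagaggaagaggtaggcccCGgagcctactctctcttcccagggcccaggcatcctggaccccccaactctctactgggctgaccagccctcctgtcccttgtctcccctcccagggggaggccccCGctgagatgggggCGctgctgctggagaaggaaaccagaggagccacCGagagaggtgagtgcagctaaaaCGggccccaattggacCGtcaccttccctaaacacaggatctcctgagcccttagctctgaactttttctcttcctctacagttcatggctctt
KDM4B: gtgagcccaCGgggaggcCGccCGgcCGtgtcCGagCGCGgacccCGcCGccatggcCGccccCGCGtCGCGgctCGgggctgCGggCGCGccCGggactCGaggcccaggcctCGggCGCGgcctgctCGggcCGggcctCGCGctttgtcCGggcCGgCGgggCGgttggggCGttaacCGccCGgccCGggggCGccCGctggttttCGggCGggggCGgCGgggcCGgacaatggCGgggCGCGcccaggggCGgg
EZH1: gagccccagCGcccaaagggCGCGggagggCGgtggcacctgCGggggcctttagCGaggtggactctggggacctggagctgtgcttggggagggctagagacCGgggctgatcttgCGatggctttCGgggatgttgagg
KDM6B: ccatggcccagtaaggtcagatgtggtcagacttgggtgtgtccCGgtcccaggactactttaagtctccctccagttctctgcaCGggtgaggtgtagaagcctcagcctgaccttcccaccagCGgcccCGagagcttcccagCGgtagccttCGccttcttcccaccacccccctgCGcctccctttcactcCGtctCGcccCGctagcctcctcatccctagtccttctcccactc

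CpG density differed widely among these 5 sites, counted over the stretches as printed. KDM4B had 46 CpGs in 260 bp, a CpG observed to expected ratio of 1.01, at 84.2% GC. KMT2A had 28 in 218 bp (ratio 0.848). EHMT2, whose peak had the highest fold of all member peaks, had 6 in 300 bp (ratio 0.219). EZH1 and KDM6B lay between, with ratios of 0.614 and 0.480. The motif GGGCGG, searched on both strands, occurred 7 times in the KDM4B stretch, 2 times in that of KMT2A and once in that of EZH1. In all, 58.8% of member 5' end peaks held it within 200 bp of the summit, and so did 58.7% of the 5' end peaks of all protein-coding genes.

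Most members carried the mark somewhere in the gene. A peak was found at 35 of 44 members (79.5%, interval 64.7 to 90.2%), against 47.2% of all protein-coding genes. Peaks at the 5' end were found at 14 members (31.8%, 18.6 to 47.6%; all genes 19.2%). Peaks within 1 kb of another, internal TSS were found at 17 (38.6%, 24.4 to 54.5%; all genes 18.1%). Peaks in the rest of the gene body were found at 22 members (50%, 34.6 to 65.4%; all genes 32.8%). The 161 peaks of the members comprised 17 at 5' ends, 36 at internal TSSs and 108 in gene bodies, or 10.6%, 22.4% and 67.1%, against 15.4%, 22.7% and 61.9% over all protein-coding genes.

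Members are long genes with many annotated starts. Their median length was 84.2 kb and their median number of TSSs 13, against 27.5 kb and 5 over all protein-coding genes. Their median GC content, 43.0%, was below the 45.3% of all genes. In ranges of length alone, all protein-coding genes from 20 kb up had a peak in 48.4 to 54.8% of cases, and the mean over the members' own ranges was 51.5%. Among the 25 members of 50 kb or more with under 45% GC, 18 had a peak (72%, 50.6 to 87.9%), and so did 40.9% of the 5083 protein-coding genes in the same range. All 8 members of 50 kb or more with at least 45% GC had a peak (interval 63.1 to 100%), where 85.7% of 1695 genes did. Of 9 shorter members with at least 45% GC, 8 had one (88.9%, 51.7 to 99.7%), against 57.8%. TSS number was not held equal in these comparisons, and its part in the difference was not tested.

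**Figure D1:**
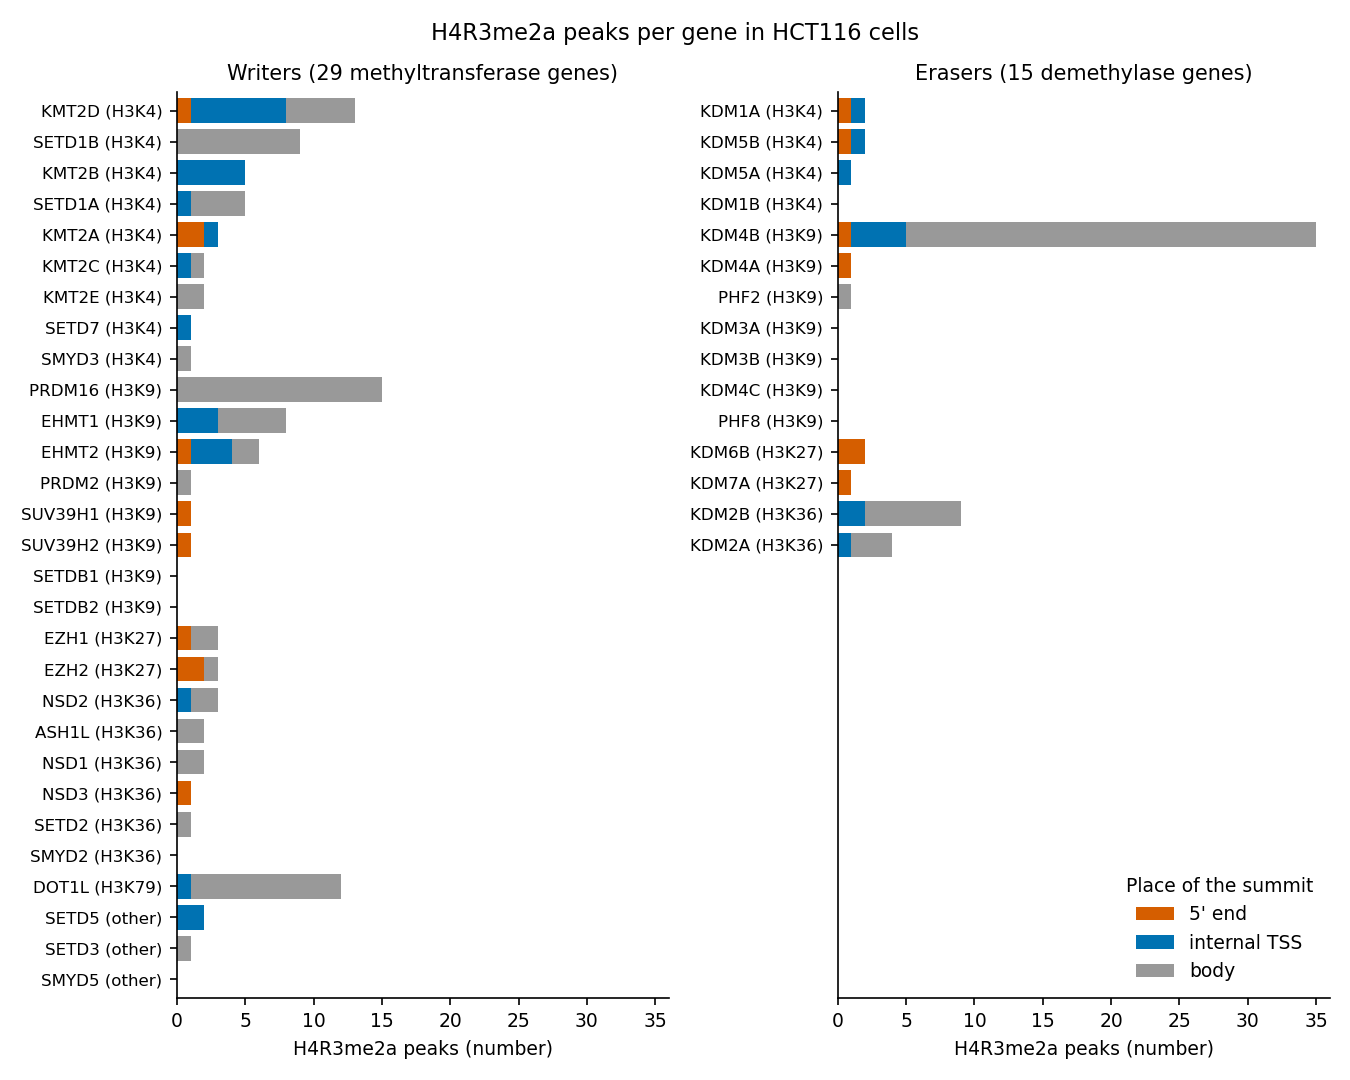
Number of H4R3me2a peaks (x axis) in each of the 29 writer and 15 eraser genes (y axis, with the substrate lysine), as bars divided by the place of the summit. KDM4B stood out with 35 peaks, and 9 genes had none.

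The peaks were unevenly spread over the members. KDM4B had 35, PRDM16 15, KMT2D 13, DOT1L 12, and KDM2B and SETD1B 9 each, so that 6 genes held 93 of the 161 peaks (57.8%). Another 12 members had 1 peak each, 12 had 2 or 3, and 11 in all had 4 or more. Only 12 protein-coding genes, KDM4B among them, had 35 peaks or more. The 9 members without a peak were the H3K9 writers SETDB1 and SETDB2, the H3K36 writer SMYD2, SMYD5, the H3K4 eraser KDM1B and the H3K9 erasers KDM3A, KDM3B, KDM4C and PHF8. Of these, only PHF8 and KDM4C had outermost 5' ends poor in CpG, with observed to expected ratios of 0.0641 and 0.161 over the 500 bp on either side. Their canonical TSSs lay elsewhere, at 54044473 against 54048958 for PHF8 and at 6757973 against 6720863 for KDM4C. The ratio at those canonical TSSs was not computed. KDM1B, SMYD2 and KDM3A had ratios of 0.890, 0.876 and 0.859 and still no peak. With a median pileup of 10 fragments behind called peaks, no peak means that none was detectable at this depth.

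Writers and erasers differed most in gene body peaks, though with overlapping intervals. Body peaks were found at 18 of 29 writers (62.1%, 42.3 to 79.3%) and at 4 of 15 erasers (26.7%, 7.79 to 55.1%), namely KDM4B, KDM2A, KDM2B and PHF2. Peaks at the 5' end were found at 8 writers (27.6%, 12.7 to 47.2%) and 6 erasers (40%, 16.3 to 67.7%). Internal TSS peaks were found at 11 writers (37.9%, 20.7 to 57.7%) and 6 erasers (40%). In total 25 writers (86.2%, 68.3 to 96.1%) and 10 erasers (66.7%, 38.4 to 88.2%) had a peak. The intervals overlapped in each of these 4 pairs, and genes of 1 library are not replicates, so no test was made. Over all protein-coding genes 32.8% had a body peak, 19.2% a 5' end peak, 18.1% an internal TSS peak and 47.2% any peak. The eraser intervals included each of these shares, and the writer intervals only that of 5' end peaks. Gene length and TSS number were not held equal here.

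Peak density was similar in writers and erasers as a whole, and this rested on KDM4B. Writers had 103 peaks in 3637 kb, or 2.83 per 100 kb (exact Poisson interval 2.31 to 3.44). Erasers had 58 in 1776 kb, or 3.27 per 100 kb (2.48 to 4.22), and all protein-coding genes had 2.07. Without KDM4B the erasers fell to 23 peaks, or 1.45 per 100 kb (0.916 to 2.17), below the interval of the writers. KDM4B was left out after its count was seen, and no writer was left out. The Poisson intervals treat peaks of 1 gene as independent, so they do not measure a difference between writer and eraser genes. Median GC content was 43.4% in writers and 43.0% in erasers. The median pileup was 10 fragments in writer peaks and 11 in eraser peaks, and the median fold was 4.18 in both.

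By substrate, 5' end peaks were most frequent at H3K27 enzymes and internal TSS peaks at H3K4 enzymes, leaving aside DOT1L as the single H3K79 gene. All 4 H3K27 enzymes, EZH1, EZH2, KDM6B and KDM7A, had a 5' end peak (interval 39.8 to 100%), and none had an internal TSS peak. All genes had a 5' end peak in 19.2% of cases. Within 500 bp of the 5' end there was a summit at 2 of these 4, EZH1 and EZH2, against 9.83% of all genes, and none of the 4 had a peak with a −log10 q of 5 or more. KDM6A, an H3K27 demethylase outside the member list, had no peak in 240 kb, so the share of this class depends on the list. Of 13 H3K4 enzymes, 4 had a 5' end peak (30.8%, 9.09 to 61.4%) and 9 an internal TSS peak (69.2%, 38.6 to 90.9%; all genes 18.1%). The median number of annotated TSSs was 18 in H3K4, 16 in H3K36, 11 in H3K9 and 10.5 in H3K27 enzymes. More TSSs give more room for an internal TSS peak, and their number was not held equal. With basic transcripts alone, 6 members of any class had an internal TSS peak (all genes 8.47%). Of 15 H3K9 enzymes, 5 had a 5' end peak (33.3%, 11.8 to 61.6%) and 3 an internal TSS peak (20%, 4.33 to 48.1%). Of 8 H3K36 enzymes, 1 had a 5' end peak, 3 an internal TSS peak and 6 a body peak. A peak anywhere was found at 12 of 13 H3K4, 9 of 15 H3K9, 7 of 8 H3K36 and all 4 H3K27 enzymes, at DOT1L and at 2 of the 3 remaining genes. The classes are small, their intervals overlap, and no difference between them was tested.

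Among the 5' end peaks, 15 of 17 lay downstream of the 5' end (88.2%, 63.6 to 98.5%), with a median position of 496 bp. Over all protein-coding genes 73.9% of 4387 lay downstream, inside that interval. The exceptions were KDM6B, with a summit 911 bp upstream that also lay in DNAH2, and KMT2A, with a summit at -99 bp. In the canonical transcripts 9 summits fell in the first intron, 3 in coding exons and 2 in 5' UTR exons, and 3 lay outside the transcript. The peaks of EHMT2, KDM1A and KDM4A, 3 of the 17, also lay at the 5' end of another protein-coding gene. At the limit of 1 kb, the members just inside were KDM6B (911 bp, fold 5.09) and KDM7A (905 bp, fold 4.12). Just outside were a peak 1091 bp upstream of PRDM16 (fold 5.08), not counted for that gene, and one 1111 bp into KMT2D (fold 6.11), counted as body.

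Most members start in CpG-rich sequence, and most of those starts had no peak. The CpG observed to expected ratio over the 500 bp on either side of the 5' end had a median of 0.867 in members and 0.688 in all protein-coding genes. It was 0.6 or more at 36 members (81.8%), against 60.1% of all genes. Of these 36, 12 had a 5' end peak (33.3%), where 24.7% of all genes with such a ratio did. Among writers the count was 7 of 25 (28%) and among erasers 5 of 11 (45.5%). KDM6B (0.571) and SUV39H1 (0.393) had a 5' end peak at a lower ratio, whereas KMT2C (1.08), PRDM16 (1.02) and EHMT1 (1.01) had none at a high one.

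**Figure D2:**
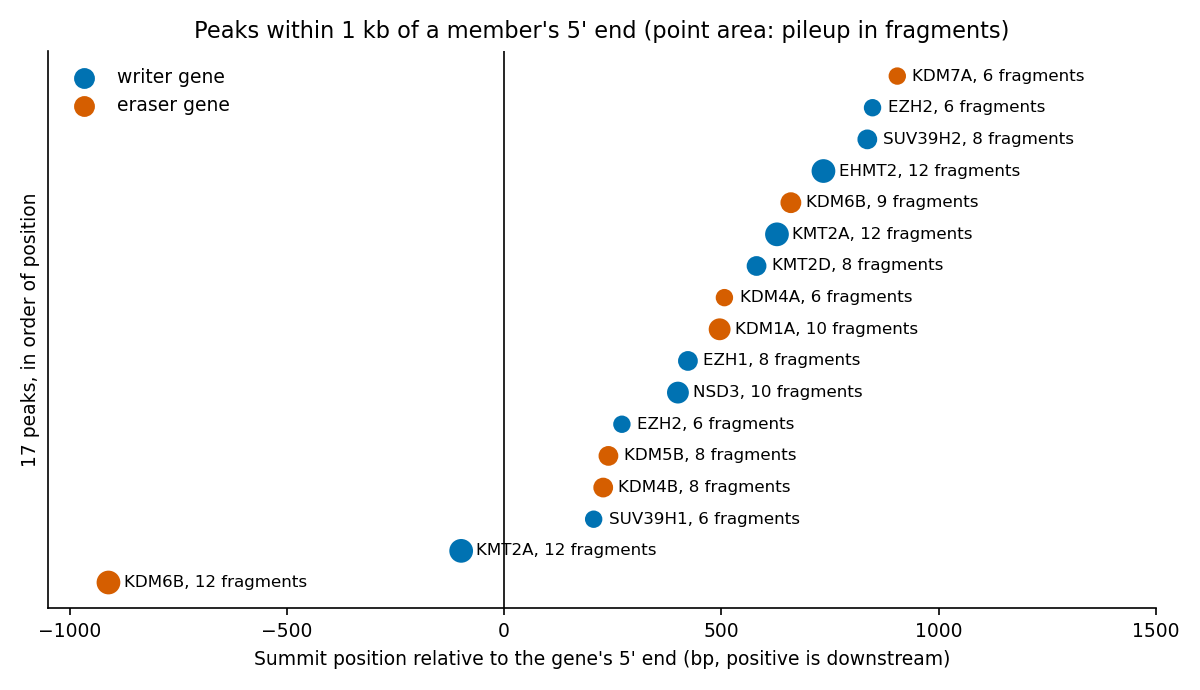
Summit position in bp relative to the 5' end of the gene (x axis, positive is downstream) for the 17 peaks at the 5' ends of 14 members, in order of position. Point area gives the pileup (6 to 12 fragments) and colour the role. All but 2 peaks lay downstream.

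The writers with a 5' end peak were led by EHMT2, also known as G9a, which sets mono- and dimethylation of H3K9. Its peak on chromosome 6 (31896706 to 31897062) had a pileup of 12 fragments over a background of 0.816 and a fold of 7.16, with the summit 735 bp downstream in coding exon 2. That site also lies within 1 kb of the 5' end of the annotated C2 gene. KMT2A, the MLL1 methyltransferase rearranged in leukaemia, had a pair of 5' end peaks of 12 fragments each. The upstream one (chromosome 11, 118436238 to 118436460) had a background of 1.01 and a fold of 6.46, and the downstream one a background of 2.05 and a fold of 4.26. The pileups were equal, so the difference in fold came from the background alone. Another KMT2A peak, at 1518 bp, had a pileup of 11 and a fold of 5.54, and lay within 1 kb of an internal TSS.

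The remaining writers had weaker 5' end peaks. NSD3, an H3K36 methyltransferase on chromosome 8, had 10 fragments (fold 5.43) at 400 bp. EZH1 and EZH2, the alternative catalytic subunits of Polycomb repressive complex 2, had 8 fragments (fold 4.83) at 423 bp and a pair of 6-fragment peaks at 271 and 848 bp (folds 3.46 and 4.12). KMT2D, which deposits H3K4 monomethylation at enhancers, had 8 fragments (fold 3.81) at 581 bp. The heterochromatin writers SUV39H1 and SUV39H2 each had their sole peak there, with 6 fragments (fold 4.12) and 8 fragments (fold 4.45). For SUV39H1 the summit lay 206 bp downstream of the outermost start but at -974 bp from the canonical TSS.

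Among erasers, the amine oxidase KDM1A, or LSD1, had the 5' end peak with the highest fold, 6.48, from 10 fragments. Its background of 0.698 was the lowest value over all peaks, a level shared at 5' ends by KDM7A, SUV39H1 and 1 EZH2 peak. KDM6B, the inducible H3K27 demethylase also called JMJD3, had 12 fragments upstream (fold 5.09) and 9 fragments 660 bp downstream (fold 5.11). KDM5B, a demethylase of H3K4, had 8 fragments (fold 4.42) at 240 bp. KDM4B had 8 fragments (fold 4.28) at 228 bp, KDM7A 6 fragments (fold 4.12) and KDM4A 6 fragments (fold 3.67). The pileups of eraser 5' end peaks, 6 to 12 fragments, spanned the same range as those of writers.

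Internal TSS peaks were a different set of sites. Of the 36, 4 lay within 2 kb of the 5' end, in EHMT1, KDM5A, KDM5B and KMT2A, and the median distance was 25157 bp. Summits lay on both sides of the nearest start, 21 downstream and 15 upstream (58.3% downstream, 40.8 to 74.5%). Coding exons held 14 of the 36 peaks (38.9%, 23.1 to 56.5%), where 21.5% of internal TSS peaks of all protein-coding genes lay. Most of the 14 came from KMT2D and KMT2B, and the rest from DOT1L, EHMT2, KMT2C, SETD1A and SETD5. The interval treats peaks of 1 gene as independent, so it does not measure a difference between members and other genes. KMT2D had 7 and KMT2B 5 of the 36, KDM4B 4, EHMT1 and EHMT2 3 each. KDM5B had 9 fragments (fold 4.94) at 1377 bp, and KDM1A 6 fragments (fold 4.09) at 57448 bp, in a later intron. KMT2C, an MLL family member close to KMT2D, had 7 fragments (fold 3.95) in coding exon 52. The single internal TSS peak of DOT1L had 12 fragments (fold 4.10) in coding exon 24, and that of SETD1A 14 fragments (fold 4.96) in coding exon 14. In EHMT1 the 3 internal TSS peaks had pileups of 7, 10 and 12 and folds of 4.07, 4.34 and 4.06.

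KMT2D and KMT2B, large H3K4 methyltransferases of the MLL family, were marked through their coding regions. KMT2D (42 kb, chromosome 12) had 13 peaks, or 31.1 per 100 kb, with pileups of 8 to 17 fragments. Coding exons held 6 of them, among them exons 20, 32, 35 and 40. The strongest by pileup, 17 fragments over 2.07 (fold 5.86), lay in exon 32 (49040489 to 49040929). KMT2B (21 kb, chromosome 19) had 5 peaks, each within 1 kb of an internal TSS, and 4 lay in coding exons 3, 24 and 28. Its peak in exon 3 (35720748 to 35721153) had 16 fragments over 1.63 and a fold of 6.46, and the one in exon 28 had 15 fragments over 4.10 and a fold of 3.14. No KMT2B summit lay within 1 kb of its 5' end. KMT2B has 22 annotated TSSs in 21 kb and KMT2D 25 in 42 kb, so many positions in these genes lie near an internal TSS.

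SETD1A and SETD1B, the catalytic subunits of the SET1 COMPASS complexes, also lacked a 5' end peak. SETD1B (29 kb, chromosome 12) had 9 body peaks, or 31.4 per 100 kb, with pileups of 8 to 13, 7 of them in the upstream part of the gene. SETD1A (27 kb, chromosome 16) had 5, with pileups of 10 to 17, and 4 of them in the downstream part. The highest pileup in SETD1A, 17 fragments (fold 5.62), lay in coding exon 8 (30965866 to 30966068). The remaining H3K4 writers had few peaks: KMT2C and KMT2E 2 each, SETD7 and SMYD3 1 each. SETD7 had 10 fragments (fold 6.42) at a site 49751 bp from its outermost 5' end but at -729 bp from its canonical TSS, in sequence with a CpG ratio of 0.820.

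EHMT1 and EHMT2 form a heterodimer that methylates H3K9, and their peaks were laid out differently. EHMT2 (18 kb) had 33.4 peaks per 100 kb, the highest density of the members. After the 5' end peak, 4 summits lay between 9210 and 10935 bp, with pileups of 10 to 16, and 1 lay in the 3' UTR (31879869 to 31880071). That last peak had the highest pileup of the members, 21 fragments over 2.14 (fold 7.01). Its summit also lay within 1 kb of the 5' end of the neighbouring gene SLC44A4. The density of EHMT2 rested on 6 peaks. Protein-coding genes under 50 kb with at least 45% GC, a range that also holds KMT2D and SETD1B, had 11.6 per 100 kb. EHMT1 (251 kb, chromosome 9) had 8 peaks, or 3.19 per 100 kb, with pileups of 7 to 12. In 3 of the 8 the 32-base sequence near the summit occurred 4, 5 and 20 times in the genome, so their position is uncertain.

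PRDM16, a zinc finger regulator of brown fat and blood stem cells, and DOT1L were marked mainly in introns. PRDM16 (369 kb, chromosome 1) had 15 body peaks, 4 in the first intron and 11 in later introns, with pileups of 8 to 15 and no exonic summit. Its density was 4.06 per 100 kb at 57.6% GC. Protein-coding genes of 50 kb or more with at least 45% GC had 4.57 and those of 200 kb or more had 0.448, while those of 55% GC or more at any length had 21.6. DOT1L (69 kb, chromosome 19) had 12 peaks, or 17.5 per 100 kb, with pileups of 8 to 17, 8 of them in the downstream part of the gene. The DOT1L peak with the most fragments, 17 over 3.07 (fold 4.42), lay in intron 4. The last one, in the 3' UTR, was shared with PLEKHJ1.

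KDM4B, a JmjC demethylase of H3K9 and H3K36, had the most peaks by far. Its 35 summits ran over 179 kb of a gene of 184 kb, with a median spacing of 3488 bp. Introns held 33 of them, 10 in the first, and coding exons 2. Pileups were 7 to 16 fragments with a median of 11, and folds 2.95 to 5.99. The highest fold, 5.99, came from 15 fragments in intron 9 (5087268 to 5087778). The median background at KDM4B peaks was 1.96 fragments against 1.54 over all peaks, and the number of DNA copies at the locus was not tested. Its density was 19.0 per 100 kb. All protein-coding genes of 55% GC or more had 21.6, but those of 50 kb or more with at least 45% GC, a range that also holds KDM4B, had 4.57, and those of 100 to 200 kb had 1.40. The related genes KDM4A (1 peak) and KDM4C (none in 455 kb) had GC contents of 46.8% and 40.4%, where KDM4B had 57.3%.

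**Figure D3:**
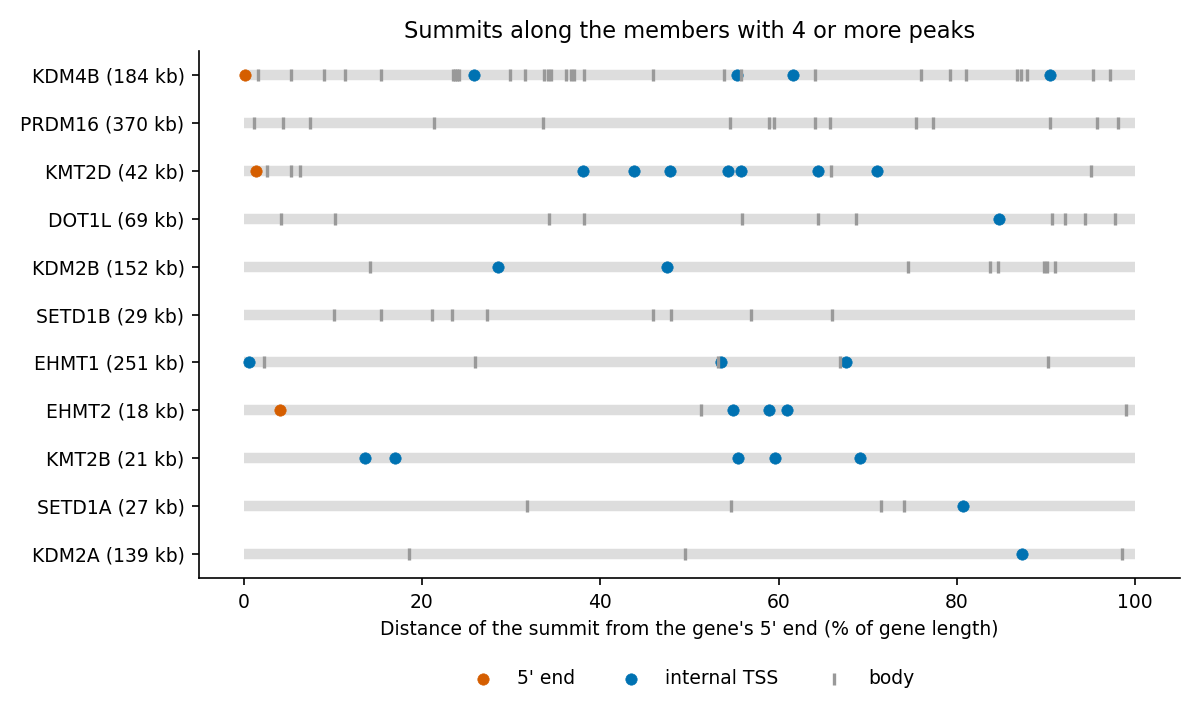
Position of each summit as a percentage of gene length from the 5' end (x axis) in the 11 members with 4 or more peaks (y axis, with gene length). Circles mark 5' end and internal TSS peaks and ticks body peaks. KMT2B peaks were all at internal TSSs, PRDM16 and SETD1B peaks all in the body. KMT2B has 22 annotated TSSs, PRDM16 10 and SETD1B 3.

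KDM2A and KDM2B, JmjC demethylases of H3K36 with a CpG-binding zinc finger, had no 5' end peak. KDM2B (152 kb, chromosome 12) had 9 peaks with pileups of 7 to 16. Of these, 5 lay between 127163 and 138282 bp, and the widest of all member peaks, 771 bp, was the last (121442156 to 121442926, 16 fragments, fold 4.77, coding exon 19). KDM2A (139 kb, chromosome 11) had 4 with pileups of 6 to 11, and the highest fold was 5.93 near an internal TSS at 121115 bp. PHF2 had a single body peak of 8 fragments (fold 4.32). KDM5A, an H3K4 eraser, had 8 fragments (fold 4.45) near an internal TSS at 1268 bp.

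The H3K36 writers had few peaks each. SETD2, the main enzyme of H3K36 trimethylation, had 1 body peak of 6 fragments (fold 4.12) in 148 kb. NSD1 and ASH1L had 2 body peaks each, with pileups of 7 or 8, and 1 of each pair lay in sequence found 14 and 7 times in the genome. NSD2 had 3, with pileups of 6, 7 and 9 and folds of 3.28 to 4.06. The 6 H3K36 writers together had 9 peaks in 823 kb, or 1.09 per 100 kb (0.500 to 2.08), below the interval of the writers as a whole. Their median length was 130 kb and their median GC content 42.0%. All protein-coding genes of 100 to 200 kb had 1.40 per 100 kb, inside that interval, and those of 50 kb or more with under 45% GC had 0.389, below it. SETD3, which methylates a histidine of actin, had 1 body peak of 9 fragments (fold 5.61), and SETD5 had 2 near internal TSSs, of 5 and 8 fragments. PRDM2 had 1 of 7 fragments (fold 3.26).

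Density was higher in GC-rich members, though not in every step. Members of under 40% GC had 1.38 peaks per 100 kb, those of 40 to 45% 0.643, of 45 to 50% 3.25, of 50 to 55% 8.79 and of 55% or more 11.5. All protein-coding genes in the same ranges had 0.244, 0.818, 2.70, 8.42 and 21.6. Members lay below all genes at 40 to 45% and at 55% or more, and above them in the other ranges. These ranges leave out gene length. In 4 coarse ranges of length and GC content together, the members lay above all genes in each. For genes of 50 kb or more the densities were 0.837 against 0.389 per 100 kb under 45% GC and 6.49 against 4.57 at 45% or more. In the latter range KDM4B alone held 35 of the 84 member peaks, so the excess there rests on 1 gene. For shorter genes the densities were 1.56 against 1.17 (2 members, 1 peak) and 19.3 against 11.6. In the lowest range 9 of 10 members had a peak, against 25% of all genes. Across the 44 members Pearson's r of GC content and density was 0.72 and Spearman's rho 0.55, and across all protein-coding genes rho was 0.51. These describe genes that share 1 library, and each point's density depends on gene length.

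**Figure D4:**
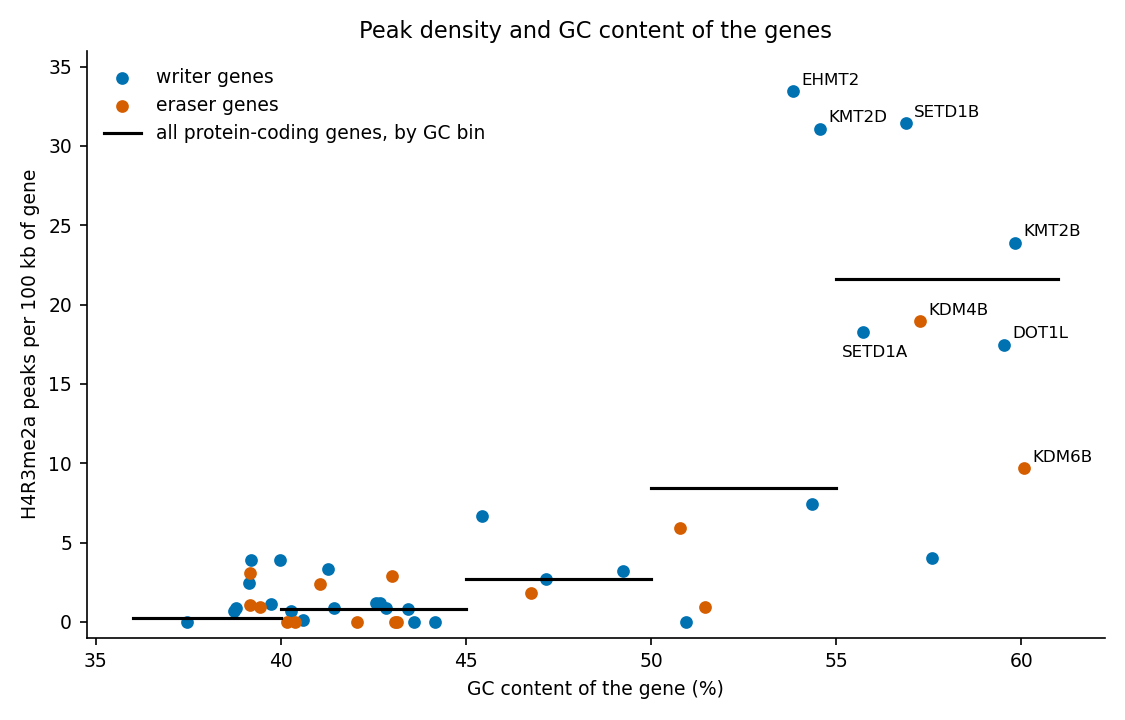
Peaks per 100 kb of gene (y axis) against GC content of the gene in % (x axis) for 29 writers and 15 erasers, with lines for all protein-coding genes in 5 ranges of GC content. EHMT2, KMT2D and SETD1B stood above 31 peaks per 100 kb. The lines do not hold gene length equal.

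The peaks of the members resembled other peaks in height. Pileup had a median of 11 fragments (quartiles 8 and 12), background one of 1.62 and fold one of 4.18, against 10 fragments, 1.54 and 4.18 for all peaks. Folds reached 6 at 7 of 161 member peaks (4.35%; 3.51% of all peaks). A −log10 q of 5 or more was reached by 8 peaks in 6 genes, EHMT2, KMT2A, KMT2B, KMT2D, SETD1A and KDM4B. Peaks at 5' ends had fewer fragments, with a median of 8, than internal TSS peaks (11.5) and body peaks (11), but a lower background (1.01 against 1.94 and 1.66). The same order was seen over all protein-coding genes, with median pileups of 9, 11 and 10.

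**Figure D5:**
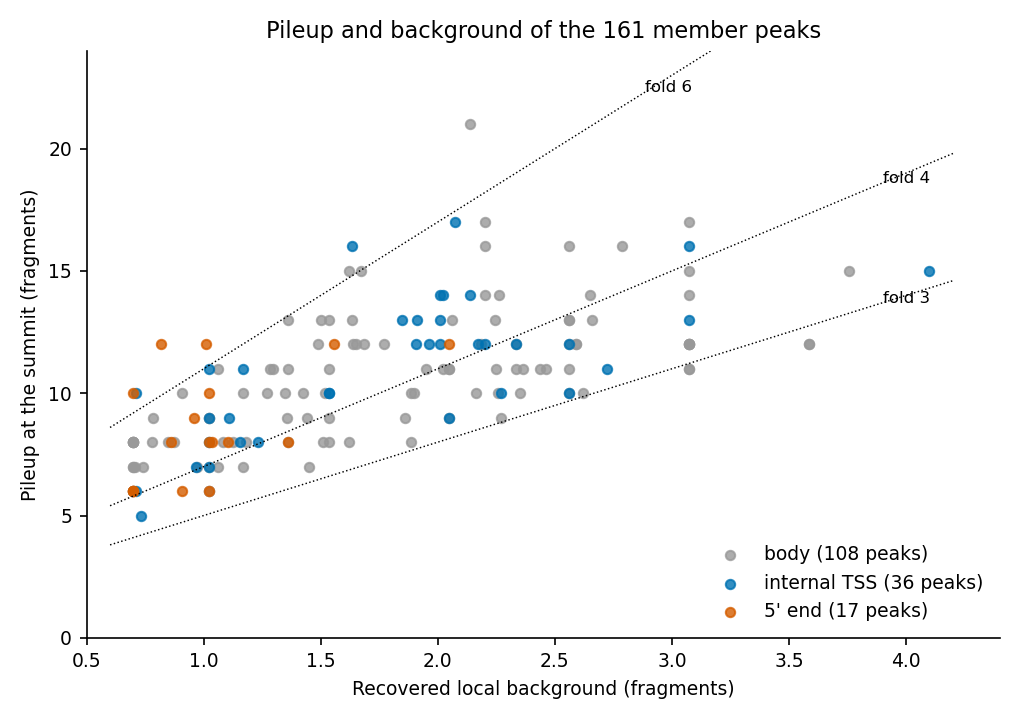
Pileup at the summit (y axis, fragments) against recovered local background (x axis, fragments) for the 161 member peaks by place, with dotted lines of equal fold. Peaks at 5' ends lay at low background and 6 to 12 fragments, and the highest pileup, 21, was in EHMT2.

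Coding exons made up 3.72% of the sequence of the members and held 29 of 161 summits (18.0%, 12.4 to 24.8%). Over all protein-coding genes the values were 2.49% and 13.3%. First introns held 22.4% of member summits with 19.7% of the sequence, and later introns 50.9% with 70.6%. The median GC content within 200 bp of the summits was 61.6% (all peaks 59.6%), and the median CpG ratio 0.363 (all peaks 0.298). A ratio of 0.6 or more, typical of CpG islands, was found at 25 of 161 summits, and the median was 0.816 at 5' ends, 0.353 at internal TSSs and 0.346 in bodies.

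Of 6 motifs searched on both strands within 200 bp of the summit, CCGGAA, the core of ETS family sites, was the one whose interval at members left out the share of all peaks at genes. It occurred at 26 of 161 member summits (16.1%, 10.8 to 22.8%) and at 10.1% of peaks at protein-coding genes. At 5' ends it occurred at 7 of 17 (41.2%, 18.4 to 67.1%), in KMT2A, KMT2D, EZH2, KDM6B, KDM7A and SUV39H2, against 16.5% of 5' end peaks of all genes. GGGCGG, the core of SP1 sites, was found at 33.5% of member summits and 32.6% of peaks at genes. CACGTG was found at 8.07% and 8.20%, TATAAA at 4.97% and 4.85%, AAGATGGC at 2.48% and 1.71%, and the NRF1 motif at 1 member summit (0.621% and 0.354%). A match is a description of the sequence, and with 6 motifs compared the share of CCGGAA has no test.

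Partner genes of these enzymes were read from lists of complexes, with the background of 47.2% for any peak and 19.2% for a 5' end peak. Of 10 COMPASS partners, which support H3K4 methylation, 9 had a peak and 4 a 5' end peak, with NCOA6 highest (fold 7.01). Of 9 Polycomb repressive complex 2 partners, 4 had a peak and 1 a 5' end peak, at MTF2 (fold 4.56), and SUZ12, RBBP4, RBBP7, JARID2 and AEBP2 had none. The share with a peak, 44.4% (13.7 to 78.8%), was near that of all genes. Of 7 H3K9 partners, 3 had a peak and 1 a 5' end peak (MPHOSPH8, fold 4.94). All 7 DOT1L and elongation partners had a peak and 4 a 5' end peak, with MLLT1 highest (fold 5.38), and ELL had 15 peaks. CoREST partners, which work with KDM1A, had 5 of 6 with a peak and 2 with a 5' end peak, RCOR1 being highest (fold 5.93). Of 13 lysine enzymes outside the members, 5 had a peak (38.5%, 13.9 to 68.4%), each with one at the 5' end. These were JMJD1C, KDM5C and the H4K20 enzymes KMT5A, KMT5B and KMT5C, with KMT5A highest (fold 4.94). The other 8, KDM4D, KDM6A, KDM8, PRDM9, RIOX1, SETD4, SETD6 and SETMAR, had none. The share of these 13 lay below the 79.5% of the members and near that of all genes. Their median length was 25.8 kb, against 84.2 kb in the members, and the difference was not tested.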

How the data were processed

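In the deposited table every peak has a position, a signal (the pileup of fragments at its summit), a ratio named fold enrichment per the file headers, and −log10 values of p and q, each from the authors' peak caller. Bowtie2, MACS2, deepTools and GRCh38 are named in the submitters' processing notes, without version or parameters. The 4 mitochondrial peaks were left out. Local background was recovered as (pileup + 1) / fold − 1, which assumes a pseudocount of 1 in the authors' fold. Summits were assigned with GENCODE release 44 on GRCh38, in the order 5' end, internal TSS (within 1 kb of any other annotated TSS), body. Assignment was tested on simulated data. Shares have exact Clopper-Pearson intervals at 95% and densities exact Poisson intervals. Intervals for shares of peaks treat peaks of 1 gene as independent. With 1 library per group no p-value was computed. Exact copies of 3 32-base sequences (at the summit and 50 bp to either side) were counted in the genome, and their median is given. The labels of 2 libraries name 1 immunoprecipitation and 1 input. All members are accounted for. Named with values are those with 5' end or internal TSS peaks, the 6 with the most peaks and the 6 with the highest density, and in each partner list the 5' end peak of highest fold. Other names were chosen after their values were seen. The sequence of 1 site is not reported here. Members, lists and alternatives were chosen with earlier results of these data known. Python 3.11.15, pandas 2.3.3 and scipy 1.17.1 were used.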

Additional observations from a re-analysis of the deposited data

How the results depend on the processing

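The 15 results were recomputed under 11 alternatives, 2 of them (without repeated sequence, without KDM4B) chosen after seeing the data, and 135 of 165 values stayed close to those reported. The rule was loose: a fall from 35 to 24 members with a peak still counted as close. A density counted as close if it lay inside the Poisson interval of the reported value. The 35 members with a peak were the same under the other windows, transcript sets, overlap rule and merging, and without the 7 peaks in repeated sequence. Windows, transcript sets, overlap and merging mostly relabel or join peaks inside gene bodies, so they could hardly change that set. Some of the 165 values could not change at all, such as those of writers when the eraser KDM4B was left out. Keeping only −log10 q values of at least 5 left 6 members with a peak (all genes 5.25%): 5 writers, 1 eraser, 4 of H3K4, 2 of H3K9 and 0 of H3K27, H3K36, H3K79 and the other genes. They left 8 peaks, 2 members with a 5' end peak, 2 with an internal TSS peak, 4 with a body peak, and 0.192 and 0.0563 peaks per 100 kb in writers and erasers. A fold of 4 or more left 99 peaks (1.70 and 2.08 per 100 kb) and 33 members with a peak (all genes 38.5%). The peaks with the higher −log10 q left 86 (1.54 and 1.69 per 100 kb), 6 members with a 5' end peak, 6 erasers, 4 of H3K9 and 1 of the other genes with a peak. Under that setting 24 members (all genes 33.1%) and 18 writers had any peak, 12 members an internal TSS peak and 16 a body peak. Merging gave writers 2.25 per 100 kb. Members with a 5' end peak numbered 8 with a window of 500 bp (all genes 9.83%) and 22 with 3 kb (30.8%). With basic transcripts alone, 6 members had an internal TSS peak (8.47%). Without KDM4B, erasers had 1.45 peaks per 100 kb. With the canonical TSS as the 5' end, 15 members had a 5' end peak. No paired analysis was possible because each group had 1 library. Depth limits every count, since peaks rest on a median of 10 fragments.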

Other observations

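Histone acetylation enzymes were read in the same way, against 47.2% of all protein-coding genes with any peak and 19.2% with a 5' end peak. Of 9 acetyltransferase genes, 7 had a peak (77.8%, 40 to 97.2%) and 2 a 5' end peak, KAT5 and KAT2A, the latter with the highest fold (4.14, 10 fragments). EP300 and KAT8 had the most, 5 peaks each, and KAT2B and KAT6A had none. Of 18 deacetylase genes, 12 had a peak (66.7%, 41.0 to 86.7%) and 5 a 5' end peak: HDAC1, HDAC3, HDAC5, SIRT2 and SIRT7. The highest fold among these was 5.91 at HDAC5, from 14 fragments, and HDAC4 had the most peaks (8). Both intervals include the 47.2% of all genes as well as the 79.5% of the 44 lysine methylation enzymes.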
